A study of Mus musculus with 17 samples.

Results

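Lungs of mice without the nuclear receptor PPARα were compared with lungs of mice that carry the human receptor, both kept on vehicle drinking water. The comparison held 6 of the 17 RNA-seq libraries of the study, 3 of PPARα null mice (KO vehicle, animals 137, 145 and 149) and 3 of humanized mice (KI vehicle, animals 102, 116 and 135). It covered 26073 autosomal genes, those of 30191 autosomal genes in a count table of 31245 genes that reached a total of 20 counts over all libraries. The members were chosen by genotype label and treatment label.

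Both genotypes descended from breeding pairs of mouse PPARα null and human PPARα heterozygous animals, so the KI mice have the human gene where the KO mice have none. All mice received a custom diet modelled on adult human intake from 6 weeks of age and vehicle water with sucrose for 14 weeks, and whole lungs were snap frozen. The 3 KO mice were female, whereas KI 102 was male and KI 116 and KI 135 were female. The other libraries were used here for the shared spread, the filter on total counts and reference values. They were of KO and KI mice given 6.2 μg/mL of the perfluoroalkyl acid PFOA (3 each) and of purchased Sv/129 wild-type (WT) mice on vehicle (2) or PFOA (3). No source states which animals were littermates. In whole lung, fewer cells of a type and less RNA per cell cannot be told apart.

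PPARα is a receptor for fatty acids and related compounds that binds DNA as a pair with RXR and switches on genes of fatty acid uptake, mitochondrial and peroxisomal β-oxidation and ketone body synthesis. It is best known from liver, heart and brown fat and is present at a lower level in lung. PFOA activates it, and the human receptor answers some ligands less strongly than the mouse one does. The vehicle comparison asks what the presence of the human receptor alone goes with, before any exposure.

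The library of KO 137 stood apart. It had 4116116 counts, against 6198588 to 8088242 in the other 5 vehicle libraries of these genotypes, and 61.3% of its counts fell on protein-coding genes, against 76.2% to 78.8%. Ribosomal RNA took 20.3% of its counts and at most 10.6% in the others, yet 29702 genes were detected in it, against 25696 to 27039. Markers of alveolar type 2 cells summed to 4315 CPM (counts per 1000000 counts after TMM scaling of the library) in KO 137 and to 8052 to 11364 CPM in the others, so markers of lung tissue were present in every library. The main values below are therefore also given without KO 137. All 17 libraries matched their sex labels. One library outside the comparison, labelled KI PFOA 139, had several transcripts at the level of the KO libraries or below it (Zfp949 16.9 CPM, against 47.3 and 41.6 CPM in the other KI PFOA libraries). Whether its genotype label holds was not tested. It is in neither group of the vehicle comparison but enters it through the shared spread and the filter on total counts. The calls below that change without it are named.

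Klf2, a shear-stress-induced transcription factor that keeps endothelium and resting lymphocytes quiescent, was the single gene that passed the test between the genotypes. In the KO libraries it measured 52.5, 57.3 and 49.9 CPM (animals 137, 145 and 149), and in the KI libraries 137, 149 and 138 CPM (animals 102, 116 and 135). The 2 groups did not overlap, and each was tight, with means of 53.2 ± 3.76 and 142 ± 6.78 CPM (SD, n = 3 each). The level was 2.66-fold higher in KI, a log2 fold change of KO minus KI of -1.41 (SE 0.20, Benjamini-Hochberg adjusted p = 0.037, quasi-likelihood test of edgeR). A call needed a fold over 2 with an adjusted p under 0.2, and this 1 call is 0.00384% of the genes tested. At an unadjusted p under 0.05 stood 5.4% of all genes with a higher level in KO and 2.83% with a lower one. Klf2 rests on 228 to 407 counts in the KO and 862 to 1174 counts in the KI libraries.

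The Klf2 difference kept its size under every setting tried, between -1.50 and -1.30 on the log2 scale, while its adjusted p did not. Without KO 137 the adjusted p was 0.213, without KO 145 it was 0.234 and without KO 149 it was 0.335 (edgeR's quasi-likelihood test), so the call was lost whichever KO library was left out. Among the 5 female libraries alone the adjusted p was 0.355 at a log2 fold change of -1.44. With DESeq2 on the same genes the adjusted p was 2.24e-06, and 1.97e-05 without KO 137. The WT vehicle libraries, at 93.2 and 69.8 CPM, lay between the genotypes.

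Klf2 lies on the plus strand of chr8:72319033-72321656 (mm10, ENSMUSG00000055148) and overlaps no other annotated gene. Of the 10 genes with the smallest unadjusted p among those of lower level in KO, 6 had an entry in the RefSeq promoter table (GRCm38.p6). The 250 bases before the RefSeq start are shown for 3 of them, picked after their values were seen because each holds a letter match to a signal-response element, in capitals. In Klf2 the capitals mark CTANNNNTAG, the core of the MEF2 site through which flow-activated kinases reach this gene, beginning 118 bases before the start. In Dusp1 and Btg2 they mark TGACGTCA, the full cAMP response element bound by CREB, beginning 143 and 166 bases before the start.
Klf2 (chr8:72318812-72319061, plus strand): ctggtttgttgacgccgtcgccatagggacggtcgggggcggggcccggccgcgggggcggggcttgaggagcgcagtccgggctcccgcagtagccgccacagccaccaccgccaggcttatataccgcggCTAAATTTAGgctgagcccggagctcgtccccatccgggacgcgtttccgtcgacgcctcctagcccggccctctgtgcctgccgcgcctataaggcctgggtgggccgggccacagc
Dusp1 (chr17:26508473-26508722, minus strand): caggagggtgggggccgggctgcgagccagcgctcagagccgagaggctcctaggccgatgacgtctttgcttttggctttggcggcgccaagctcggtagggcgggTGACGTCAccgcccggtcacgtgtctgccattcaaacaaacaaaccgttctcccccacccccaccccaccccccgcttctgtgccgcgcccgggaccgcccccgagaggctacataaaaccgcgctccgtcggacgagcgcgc
Btg2 (chr1:134079156-134079405, minus strand): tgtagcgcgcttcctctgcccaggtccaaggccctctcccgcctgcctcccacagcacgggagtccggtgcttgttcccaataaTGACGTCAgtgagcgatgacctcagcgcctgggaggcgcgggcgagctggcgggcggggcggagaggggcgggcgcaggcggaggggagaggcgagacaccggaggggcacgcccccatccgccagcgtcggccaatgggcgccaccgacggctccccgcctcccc
Searched on both strands, CTANNNNTAG was in 3.2% and TGACGTCA in 1.55% of all 32851 promoters of that length. AGGTCANAGGTCA, the strict form of the direct repeat that PPARα and RXR bind, was in 0.0335% of them and in none of the 44 PPARα targets that had an entry. These are matches of letters and say nothing about what binds there.

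The other genes with the smallest unadjusted p among those of lower level in KO did not pass the test and are given as values. They included Sik1, Cebpd, Zfp949, Zfp36, Dusp1, Btg2, Rasd1 and Zbed4, and for each of these 8 the KO and KI libraries did not overlap. These genes were picked by their p in this same comparison, so that lack of overlap comes largely from the choice. Among all genes, 4.42% had non-overlapping libraries with KO lower and 5.27% with KO higher. With 3 libraries a group the smallest p of an exact permutation test is 0.1. The plot of mean level against difference shows these genes, apart from Rasd1, at moderate to high levels, whereas the genes of higher level in KO lay near the low end.

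**Figure D1:**
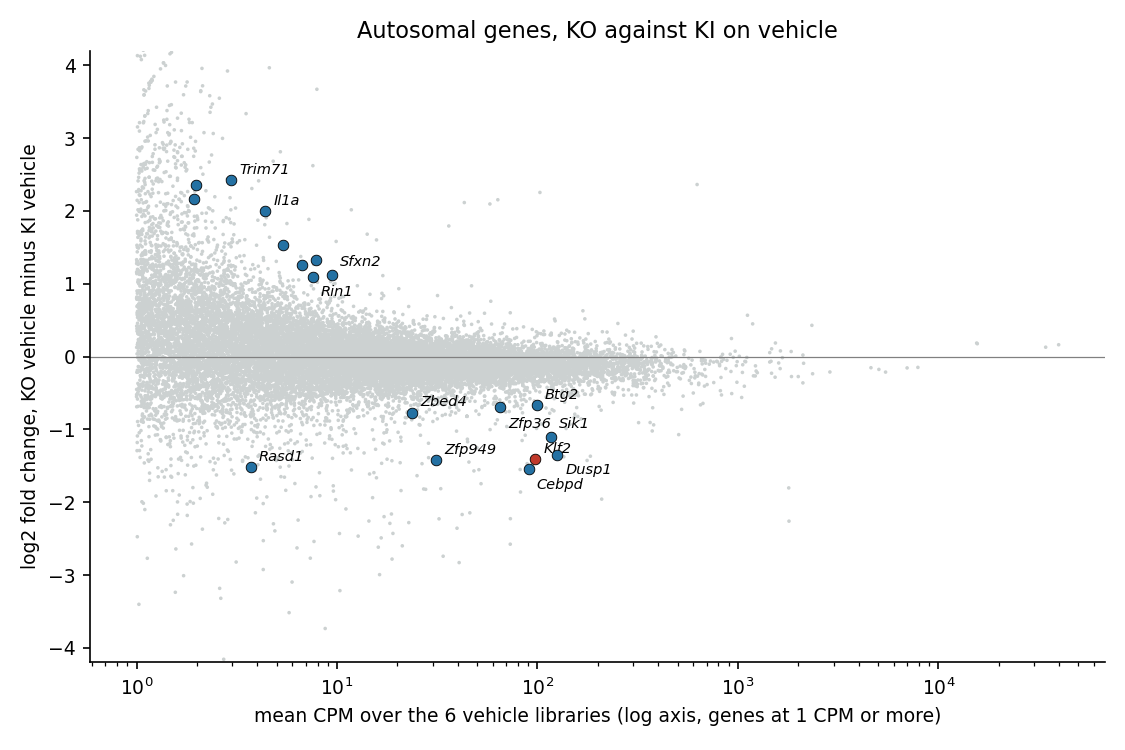
Each grey point is 1 autosomal gene at a mean of 1 CPM or more, with the mean CPM over the 6 vehicle libraries on a log axis and the log2 fold change of KO minus KI on the vertical axis (68 genes lie outside the axis range). Klf2 is red, and the other genes described here for a small unadjusted p are blue (AW822073, at 7.32, lies above the axis). Apart from Rasd1, the marked genes below 0 lie at higher mean levels than those above 0.

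Several of these genes are immediate-early genes, transcribed within minutes of a stimulus without new protein synthesis. Sik1, a salt-inducible kinase that restrains CREB coactivators, measured 78.3, 68.0 and 76.8 CPM in KO 137, 145 and 149 and 118, 237 and 122 CPM in KI 102, 116 and 135 (log2 fold change -1.10, SE 0.21, adjusted p = 0.281 by edgeR, -1.13 without KO 137). Dusp1, a phosphatase that switches off MAP kinases, measured 73.7, 83.4 and 54.4 CPM in KO and 118, 271 and 149 CPM in KI (-1.35, SE 0.28, -1.37 without KO 137). In both, KI 116 was far above the other KI libraries, and even the lowest KI library exceeded every KO library. Cebpd, a transcription factor of the acute-phase response, showed the same order at 41.0, 47.0 and 50.6 CPM in KO and 73.7, 199 and 131 CPM in KI (-1.54, SE 0.29, -1.45 without KO 137). Without KI PFOA 139 Cebpd was called by edgeR. Dusp1 shares its annotated span with Ergic1 on the opposite strand and Cebpd with Spidr, and whether the counting used strand is not given in the sources used here.

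Zfp36, an RNA-binding protein that destabilizes cytokine transcripts, and Btg2, an antiproliferative cofactor, differed by less. Zfp36 measured 56.9, 47.8 and 45.7 CPM in KO and 68.6, 87.6 and 85.6 CPM in KI (log2 fold change -0.69, SE 0.14, -0.78 without KO 137). Btg2 measured 71.9, 84.1 and 73.8 CPM in KO and 98.9, 151 and 114 CPM in KI (-0.66, SE 0.14, -0.61 without KO 137). Rasd1, a small GTPase induced by glucocorticoid, was low throughout, at 1.55 to 2.53 CPM in KO and 5.20 to 5.89 CPM in KI. Zbed4, a zinc finger protein, measured 14.1 to 21 CPM in KO and 25.5 to 32.1 CPM in KI.

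**Figure D2:**
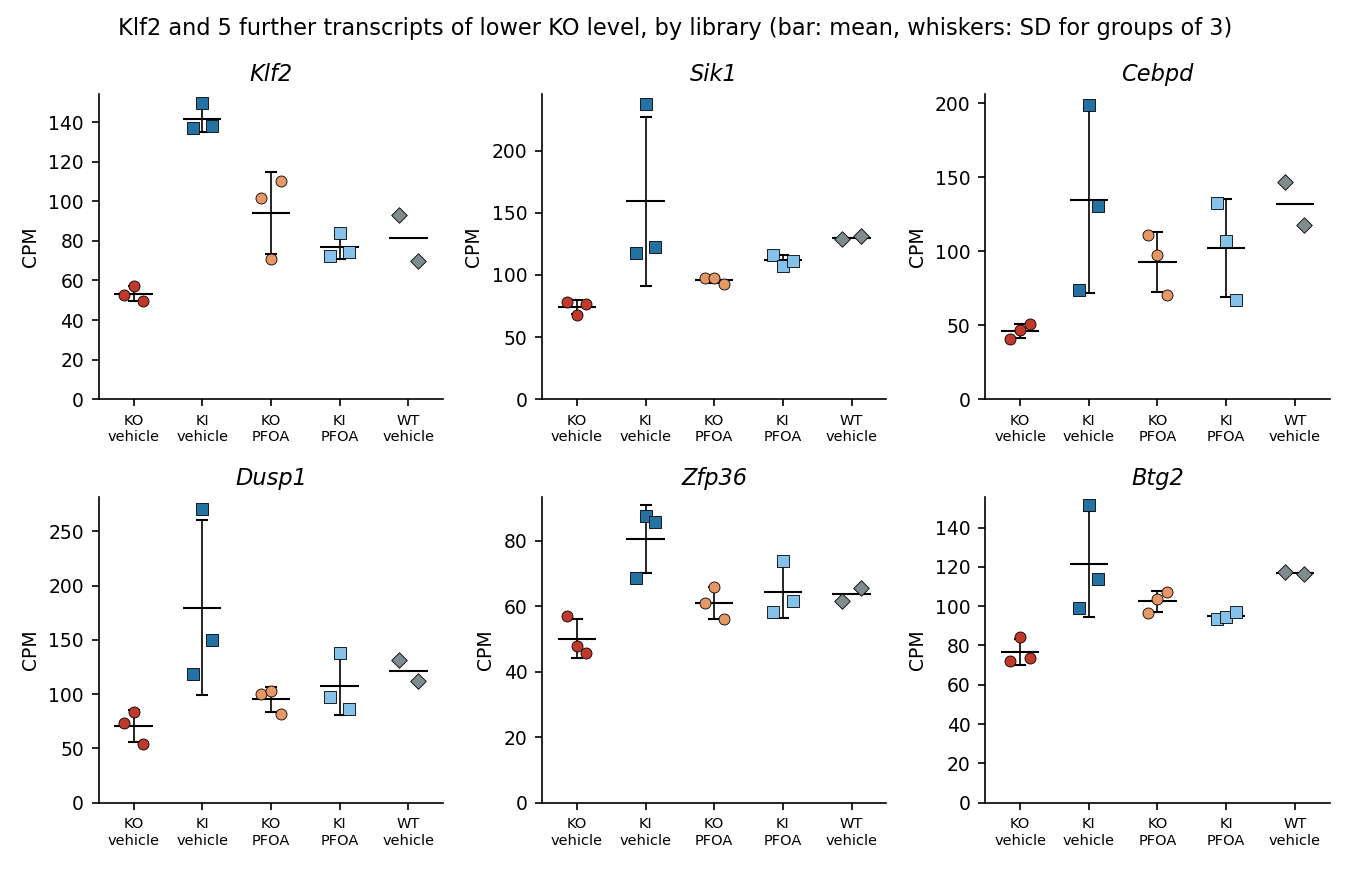
CPM of 6 transcripts in each KO, KI and WT vehicle library and each KO and KI PFOA library, with bars for the mean and whiskers for the SD of groups of 3. KO vehicle points lie below every KI vehicle point in all 6 panels, and for Klf2 the KO and KI PFOA libraries (70.9 to 110 CPM) lie between the vehicle groups. The 6 transcripts were picked by their p in the vehicle comparison.

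The list of immediate-early genes had 30 tested members. Klf2 passed the test, and at an unadjusted p under 0.05 stood 11 members of lower level in KO and 1 of higher level, with 11 members not overlapping on the lower side and 0 on the higher side. Of all genes, 2.83% were lower and 5.4% higher at that p. Without overlap, 4.42% of all genes were lower and 5.27% higher. The median log2 fold change of the list was -0.37, against 0.02 over all autosomal genes. The 11 include Klf4 (52.5 to 74.3 CPM in KO, 102 to 183 in KI), a relative of Klf2 in endothelium, and Nr4a1 (10.4 to 19.1 CPM in KO, 23.2 to 29.1 in KI), an orphan nuclear receptor. Fos and Egr1, the best-known genes of this class, were at 7.28 to 16.1 and 19.7 to 33.9 CPM in KO and at 16.7 to 30.04 and 45.3 to 47.7 CPM in KI. Ier3, a stress-induced survival factor, was the member of higher level in KO (log2 fold change 0.56). Klf4, Nr4a1, Fos, Egr1 and Ier3 were named after their values were seen.

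Without KO 137 the immediate-early list had 13 members of lower level at an unadjusted p under 0.05, 2 of higher level and a median of -0.48. Over all genes in that fit the corresponding shares were 3.09% lower and 2.1% higher, and 0 genes were called, with 1286 at an unadjusted p under 0.05 (edgeR). The list's summed level was 1339 to 1580 CPM in KO and 1818 to 2651 CPM in KI, without overlap (p = 0.1, exact permutation test, two-sided, the smallest that 3 against 3 allows). Glucocorticoid-response genes, which share Dusp1 with this list and Pdk4 and Angptl4 with the PPARα targets, numbered 6 lower and 0 higher of 15 tested at an unadjusted p under 0.05 (median -0.47), all 3 shared genes among the 6. Of all genes, 2.83% were lower and 5.4% higher at that p. Without KO 137 the glucocorticoid-response genes numbered 4 lower (median -0.35). Their summed level overlapped between the genotypes, at 949 to 1246 CPM in KO and 1153 to 2460 CPM in KI. Among them Errfi1, a feedback inhibitor of EGF receptor signalling, measured 61.7 to 84.3 CPM in KO and 89.9, 348 and 149 CPM in KI 102, 116 and 135, and Per1, a clock repressor, 70.4 to 132 CPM in KO and 148 to 215 CPM in KI. Both were named after their values were seen. KI 116 was highest in each, and the time of day at which each lung was taken is not given in the sources used here.

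In PFOA-exposed mice of the same genotypes the Klf2 libraries overlapped. Klf2 measured 102, 70.9 and 110 CPM in the KO PFOA libraries and 72.5, 83.8 and 74.5 CPM in the KI PFOA libraries, with KO minus KI at 0.29 (SE 0.20, unadjusted p = 0.157 by edgeR). The genotype difference on vehicle minus that on PFOA was -1.70 for Klf2 (SE 0.28, adjusted p = 0.249 by edgeR and 0.00062 by DESeq2), so the test of the difference itself passed under 1 of the 2 tools. The immediate-early list on PFOA had 1 member of higher and 0 of lower level in KO at an unadjusted p under 0.05, with a median of -0.01. Over all genes on PFOA those shares were 1.04% higher and 1.26% lower.

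The receptor gene itself was measured next. Ppara (ENSMUSG00000022383, plus strand of chr15:85734983-85802819, mm10) was at 11.7, 10.3 and 9.17 CPM in KO 137, 145 and 149 and at 15.3, 15.3 and 12.7 CPM in KI 102, 116 and 135. The libraries did not overlap, but the difference did not pass (log2 fold change -0.48, SE 0.25, adjusted p = 0.64 by edgeR). The WT vehicle libraries were lower than both, at 6.13 and 7.21 CPM. A count over the whole gene does not separate transcripts of a disrupted allele from intact ones, and reads of the human gene were counted only where they aligned to the mouse genome. The level of mouse Ppara therefore does not check the genotype labels. Of 29 tested genes within 1 Mb of Ppara, 1 was lower and 0 were higher in KO at an unadjusted p under 0.05, against 2.83% and 5.4% of all genes.

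The list of the receptor's partners holds the PPARs and RXRs with their coactivators and corepressors. Of its 18 tested members 0 reached an unadjusted p under 0.05, where 2.83% of all genes were lower and 5.4% higher in KO. Their log2 fold changes ran from -0.99 to 0.17. Without KO 137 there was 1 lower member at that p (3.09% of all genes), and without KI 102 also 1 (2.09%). Rxra, the main RXR partner, measured 50.2 to 67.3 CPM in KO and 65.0 to 78.5 CPM in KI, and Ncor1, a corepressor, 383 to 479 and 435 to 478 CPM. Rxra was named for its role.

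The list of PPARα targets, which covers fatty acid uptake, transport, oxidation and ketone body synthesis, had 59 tested members. Of these 28 were lower and 1 was higher in KO at an unadjusted p under 0.05, and 51 had a log2 fold change below 0, against 47.8% of all genes. The libraries did not overlap for 21 members with KO lower and for 1 with KO higher. Of all genes, 2.83% were lower and 5.4% higher at that p. Without overlap, 4.42% of all genes were lower and 5.27% higher in KO. The median log2 fold change was -0.50. By edgeR 0 passed the test, and Ephx2 was among those called by DESeq2. The summed level was 2290, 3941 and 3725 CPM in KO 137, 145 and 149 and 4548, 4801 and 4378 CPM in KI 102, 116 and 135, without overlap (p = 0.1, exact permutation test).

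Pdk4, Ephx2 and Acaa2, named after their values were seen, had libraries that did not overlap. Pdk4, the kinase that turns pyruvate dehydrogenase off when fat is burned, measured 20.5, 12.7 and 13.4 CPM in KO and 42.7, 100.4 and 63.0 CPM in KI (log2 fold change -2.17, SE 0.70, -2.39 without KO 137). Ephx2, the soluble epoxide hydrolase of fatty acid epoxides, measured 1.15, 1.27 and 1.26 CPM in KO and 17, 7.38 and 7.73 CPM in KI (-3.10, SE 0.81, -3.06 without KO 137), from 5 to 10 counts in the KO libraries. Acaa2, the last enzyme of the mitochondrial β-oxidation spiral, measured 25.1, 44.0 and 46.1 CPM in KO and 93.4, 68.4 and 71.3 CPM in KI (-1.0, SE 0.24, -0.78 without KO 137). For each of the 3 the unadjusted p was between 0.00048 and 0.00624, and none passed after adjustment by edgeR.

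The members of the list spread widely, from -3.52 to 0.96. Acadvl, Acadm and Hsd17b4, dehydrogenases of very-long-chain, medium-chain and peroxisomal substrates, had log2 fold changes of -0.74, -0.87 and -0.59, and Acot2, a mitochondrial thioesterase, one of -0.69. Angptl4, a secreted inhibitor of lipoprotein lipase and a common reporter of PPAR activity, overlapped between the genotypes (21.2 to 36.8 CPM in KO, 35.7 to 82.7 in KI). Ehhadh, a peroxisomal oxidation gene that rises in mouse liver on PPARα agonists, was at -0.06. Acaa1b, a peroxisomal thiolase, was the 1 member of higher level in KO at an unadjusted p under 0.05 (log2 fold change 0.96). These genes were also named after their values were seen.

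**Figure D3:**
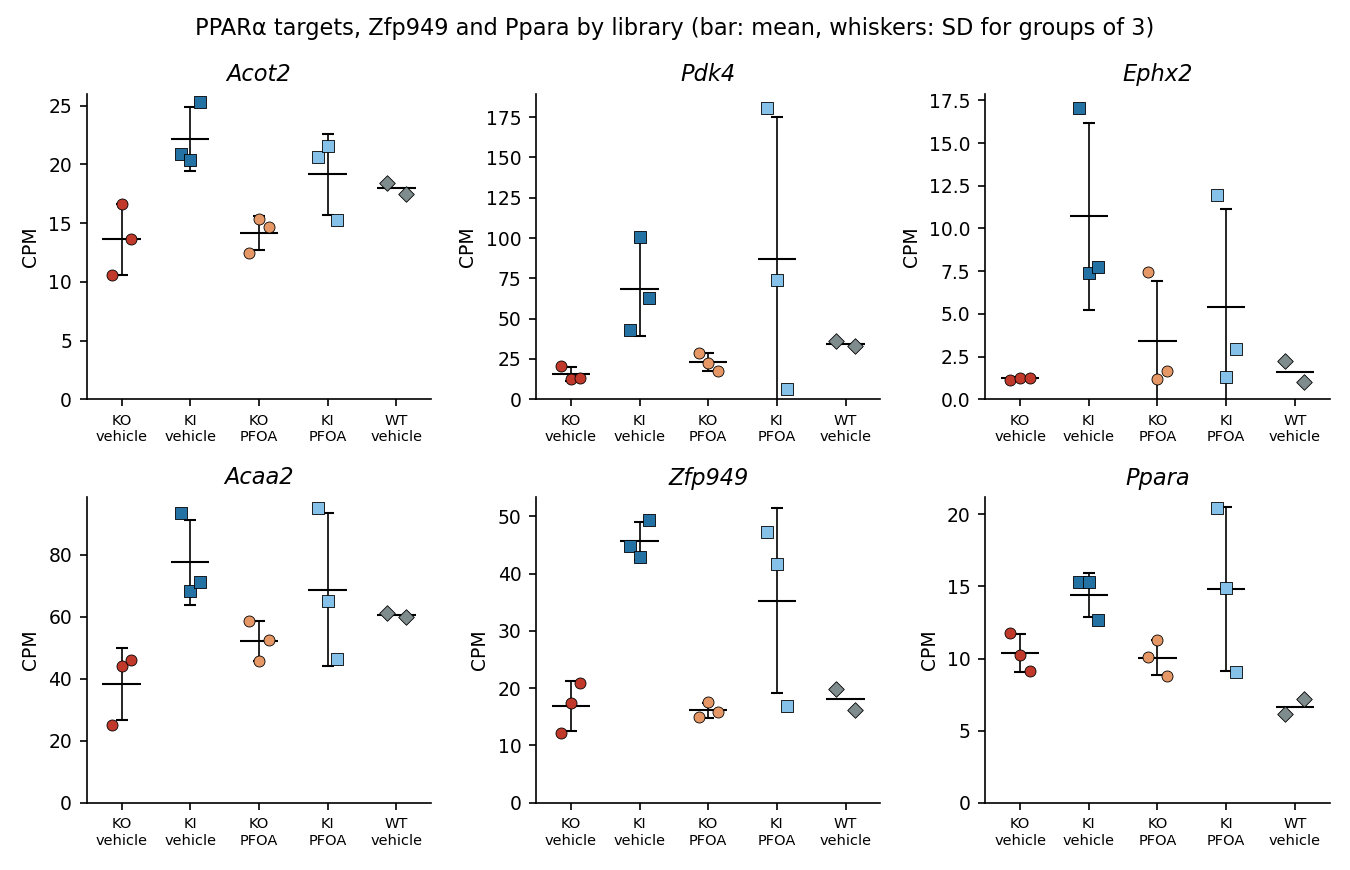
CPM of 4 PPARα targets, Zfp949 and Ppara in each KO, KI and WT vehicle library and each KO and KI PFOA library, with bars for the mean and whiskers for the SD of groups of 3. In every panel all KO vehicle points lie below all KI vehicle points, and in every panel but that of Ephx2 the lowest KI PFOA point is library KI PFOA 139. The 4 targets were picked after their values were seen, and Angptl4, whose vehicle libraries overlapped, is not drawn.

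Cardiac muscle transcripts were also lower, in 2 of the 3 KO libraries. All 20 tested cardiac markers were below 0 (47.8% of all genes), 12 of them at an unadjusted p under 0.05 (2.83% of all genes), with a median of -2.32. The libraries did not overlap for 6 of the 20 (4.42% of all genes with KO lower). Without KI 102 the 12 at that p became 0 and the median -1.15, in a fit where 2.09% of all genes were lower in KO at that threshold. Without KO 137 the 12 became 19 and the median -4.09, in a fit where 3.09% of all genes were lower. Their sum was 4486, 729 and 780 CPM in KO 137, 145 and 149 and 14143, 4297 and 4055 CPM in KI 102, 116 and 135. Myh6, the α myosin heavy chain of heart muscle, ran from 161 to 1485 CPM in KO and from 1619 to 5543 CPM in KI. Nppa, another marker of the list, named after its values were seen, measured 215 CPM in KI 102 and at most 0.921 CPM in the other vehicle libraries of these genotypes. Mouse pulmonary veins carry a sleeve of heart muscle, and heart muscle uses many genes of the target list. KO 137 had a cardiac sum within the range of KI 135 to KI 102. In it Pdk4 (20.5 CPM), Ephx2 (1.15) and Acaa2 (25.1) were below every KI library. These 3 genes were named with their non-overlapping libraries known, so that order in KO 137 was given by the choice. Endothelial markers, at 2993 CPM in KO 137 and 5665 to 7599 CPM in the others, were lowest in KO 137. Cpt1b and Fabp3, the heart and muscle forms of a fatty acid transferase and a binding protein, were highest in KI 102 and, among the KO libraries, in KO 137, as the cardiac sum was. Cpt1b had 15, 0 and 0 counts in KO 137, 145 and 149, where a count of 0 allows up to 0.439 and 0.388 CPM, and 118, 52 and 41 counts in KI. Fabp3 measured 3.92, 1.13 and 1.0 CPM in KO and 27.9, 3.95 and 6.33 CPM in KI. In the WT vehicle libraries Cpt1b was at 1.73 and 1.64 CPM and Fabp3 at 1.73 and 0 CPM.

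The median of the target list stayed below 0 when single libraries were left out. It was -0.39 without KO 137, with 14 members lower and 3 higher at an unadjusted p under 0.05, and -0.31 without KI 102, the male library with the highest cardiac sum, with 18 members lower. On PFOA its median was -0.21, with 7 members lower and 0 higher. Shares of all genes at that p were 3.09% lower and 2.1% higher without KO 137 and 2.09% lower without KI 102. On PFOA those shares were 1.26% lower and 1.04% higher. Adipocyte markers, which share Cidea with the target list, were also lower in KO, with a median of -1.38, 4 of 13 members lower and 0 higher at an unadjusted p under 0.05, and a sum of 207 to 213 CPM in KO and 272 to 472 CPM in KI. Their median was -2.59 without KO 137 and -0.86 without KI 102, where 0 members were lower. With all libraries in the fit, 2.83% of all genes were lower and 5.4% higher at that p. Fabp4, a fatty acid carrier of adipocytes on the target list, measured 10.05 to 13.4 CPM in KO and 16.9 to 74.0 CPM in KI. The part of cardiac muscle and of fat tissue in the target list was not tested.

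The list of oxidative phosphorylation genes holds subunits of the respiratory complexes. All 30 tested members were below 0, 19 at an unadjusted p under 0.05 and 14 with non-overlapping libraries, with a median of -0.53. Of all genes, 47.8% were below 0, 2.83% were lower at that p and 4.42% were lower without overlap. Atp5a1, the catalytic-core α subunit of ATP synthase, measured 138, 204 and 220 CPM in KO 137, 145 and 149 and 375, 255 and 239 CPM in KI 102, 116 and 135. The highest KI value again belonged to the library with the most cardiac transcript. Without KI 102 the number lower at an unadjusted p under 0.05 was 4 and the median -0.37, and without KO 137 it was 6 and the median -0.39. Of all genes in those fits, 2.09% and 3.09% were lower at that p. The muscle-specific subunits Cox6a2 and Cox7a1 had the most negative values, at -1.91 and -1.68. The part of cardiac muscle in this list was not tested.

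**Figure D4:**
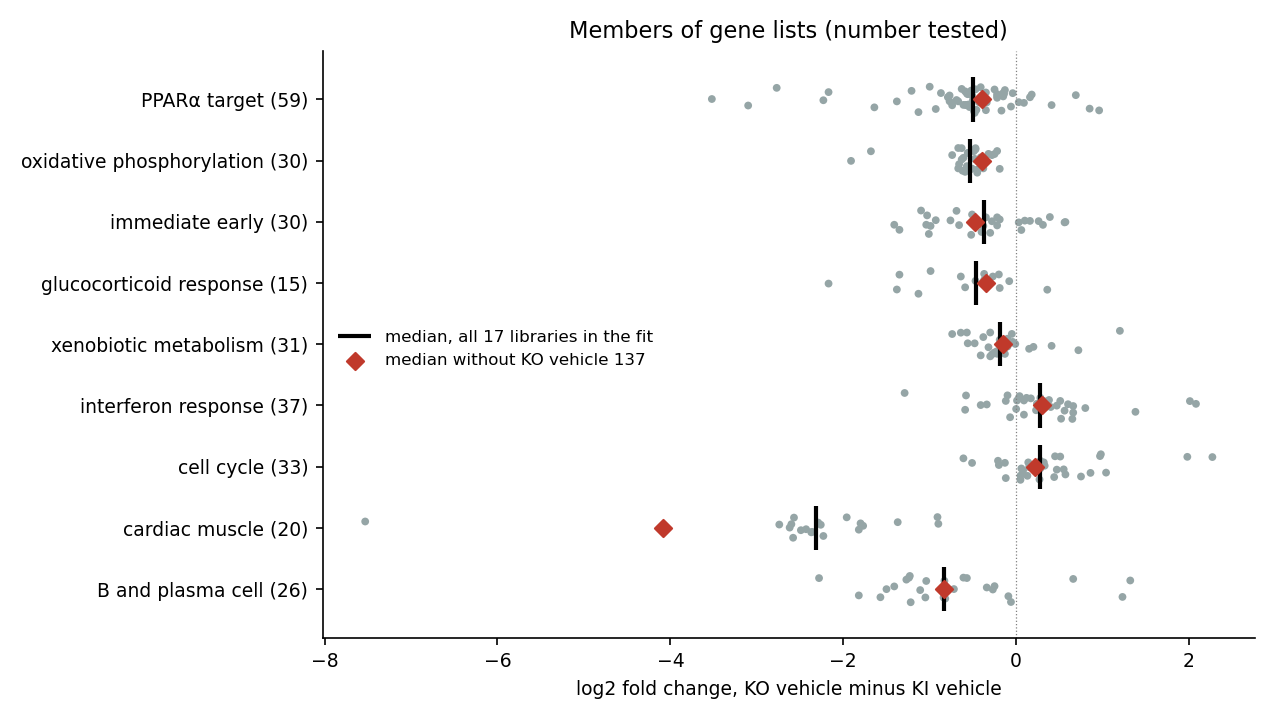
Each point is a member of a list placed at its log2 fold change, KO vehicle minus KI vehicle, with a black bar at the list median and a red diamond at the median without KO 137. The PPARα target, oxidative phosphorylation and immediate-early medians lie between -0.53 and -0.37, and the cardiac muscle median moves from -2.32 to -4.09 when KO 137 is left out.

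**Figure D5:**
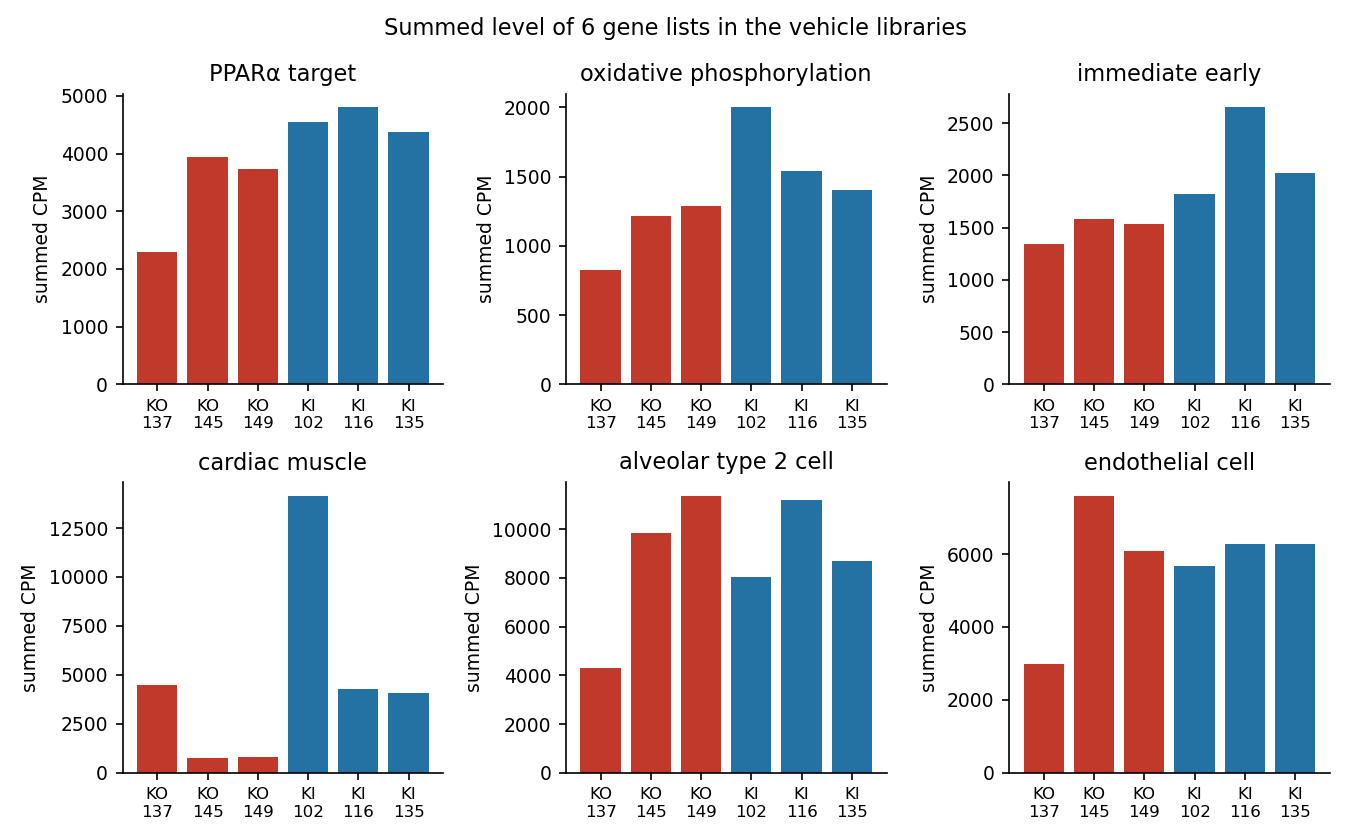
Bars give the summed CPM of 6 gene lists in each vehicle library, KO in red and KI in blue, from an axis that starts at 0. KO 137 is lowest for alveolar type 2 and endothelial markers, and among the KO libraries it alone has a cardiac muscle sum like those of KI 116 and KI 135.

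Zfp949, a zinc finger gene on the plus strand of chr9:88548020-88571061 that shares its span with Gm26461, also had libraries that did not overlap. It measured 12.2, 17.4 and 20.8 CPM in KO 137, 145 and 149 and 44.9, 42.9 and 49.3 CPM in KI 102, 116 and 135 (log2 fold change -1.42, SE 0.27, adjusted p = 0.281 by edgeR and 0.00737 by DESeq2). Without KI PFOA 139 Zfp949 was called by edgeR (adjusted p = 0.00503), and without KO 137 its log2 fold change was -1.25. The WT vehicle libraries, at 19.8 and 16.2 CPM, were at the level of KO and not between the groups. On PFOA the KO libraries measured 15 to 17.6 CPM and the KI libraries 47.3, 41.6 and, in KI PFOA 139, 16.9 CPM. Of 32 tested genes within 1 Mb, 5 were higher and 1 was lower in KO at an unadjusted p under 0.05, against 5.4% and 2.83% of all genes.

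Of the 10 genes with the smallest unadjusted p among those of higher level in KO, 0 passed the test by edgeR, and all were of low abundance. Il1a, the alarmin interleukin-1α, had the smallest p, at 4.61, 9.01 and 7.28 CPM in KO 137, 145 and 149 and 2.07, 1.40 and 1.83 CPM in KI 102, 116 and 135 (log2 fold change 1.99, SE 0.42, adjusted p = 0.44 by edgeR and 0.0409 by DESeq2). The groups did not overlap, the KI libraries held 11 to 13 counts each, Gm14023 lies on the opposite strand, and the difference was 2.21 without KO 137. Sfxn2, a mitochondrial carrier of the sideroflexin family, measured 15.9, 11.3 and 11.7 CPM in KO and 4.62, 5.09 and 7.87 CPM in KI (1.13, SE 0.25, 0.97 without KO 137). Sfxn2 in the WT vehicle libraries was at 10.4 and 13.9 CPM, the level of KO. On PFOA neither gene differed beyond its error (-0.08 for Il1a and -0.21 for Sfxn2).

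As Sfxn2 did, the remaining 8 of the 10 genes each had their highest vehicle level in KO 137. Trim71, a developmental RNA-binding ubiquitin ligase, measured 7.83, 4.64 and 2.51 CPM in KO 137, 145 and 149 and 0.764 to 0.984 CPM in KI. Rin1, a RAS effector, measured 14.5, 6.90 and 9.67 CPM in KO and 4.33 to 5.25 CPM in KI. The others were AW822073, Gm12185, Gm15663, Gm20633, Gm28874 and Gm37372, of which the last 4 are not annotated as protein-coding and Gm12185, Gm15663 and Gm20633 overlap other genes. AW822073 had 33, 4 and 2 counts in KO 137, 145 and 149 and 0 in each KI library. Counted over the 6 libraries, 73 genes had 3 or more counts in KO 137 alone, against 2 to 6 genes for any other library.

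DESeq2 on the same genes called 16, of which 6 were higher (0.023% of all genes) and 10 lower (0.0384%) in KO, and 9 of them at an adjusted p under 0.05. Beyond those named, the lower ones included Ddit4, a stress-induced inhibitor of mTOR (6.22, 3.10 and 3.14 CPM in KO and 11, 22.1 and 13.5 CPM in KI, adjusted p = 0.0492 by DESeq2, and called by edgeR without KI PFOA 139), and Nrgn, a calmodulin-binding protein (4.15 to 10.4 and 11.7 to 31.5 CPM). Of the 6 higher ones, 5031410I06Rik was detected in KO 137 and in no other vehicle library of the 2 genotypes. Without KO 137 DESeq2 called 29 genes, 8 of them among the 16.

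Markers of most lung cell types had medians near that of all genes. Beside the counts below, 2.83% of all genes were lower and 5.4% higher in KO at an unadjusted p under 0.05. Without KO 137 those shares were 3.09% and 2.1%. Without overlap, 4.42% of all genes were lower and 5.27% higher in KO. Alveolar type 1, ciliated, endothelial, fibroblast, mesothelial and neutrophil lists had 0 lower members at an unadjusted p under 0.05, and their medians lay between -0.17 and 0.01. Without KO 137 the ciliated list had 3 lower members (median -0.39) and the neutrophil list 2, and the medians of the alveolar type 1 and endothelial lists were 0.29 and 0.20. Club cell markers had 1 of 19 members lower at an unadjusted p under 0.05 with KO 137 (median -0.41) and 10 of 19 without it (median -1.19), and their sum was 11379, 9852 and 10722 CPM in KO and 10883 to 13759 CPM in KI. Smooth muscle markers were below 0 in 17 of 17 members, 2 of them at an unadjusted p under 0.05 (median -0.33, and -0.44 without KO 137). For 7 of the 17 the libraries did not overlap, and the sums were 2537 to 2716 CPM in KO and 3489 to 3707 CPM in KI (p = 0.1, exact permutation test). Erythroid genes had 1 of 11 members lower at an unadjusted p under 0.05 (median -0.94, and -0.75 without KO 137), with sums that overlapped. B and plasma cell markers had 7 of 26 members lower at an unadjusted p under 0.05 but 0 without overlap, since KI 102 was high (752 CPM) and KI 116 was not (233 CPM, against 207 to 324 in KO). Interferon-response genes had 8 of 37 members above KI without overlap and 2 below, with 3 higher and 1 lower at an unadjusted p under 0.05 and a median of 0.28 (0.30 without KO 137). Cell cycle genes had 5 of 33 above KI without overlap and 0 below (median 0.28, and 0.22 without KO 137), among them Cenpf, a kinetochore protein (14.7, 20.5 and 14.9 CPM in KO, 8.91, 9.67 and 7.03 CPM in KI). Xenobiotic-metabolism genes had 9 of 31 members below KI without overlap (median -0.19, and -0.15 without KO 137), among them the detoxifying enzymes Gsta4 (22.5 to 26.6 and 35.0 to 41.4 CPM) and Gclc (49.0 to 60.3 and 64.2 to 110 CPM). Cenpf, Gsta4 and Gclc were named after their values were seen.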

How the data were processed

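The authors deposited expected counts per gene (mouse mm10, STAR 2.6, expectation-maximization quantification in Partek Flow). The library kit was stranded total RNA from low input, and its use in counting is not given in the sources used here. Of the deposited counts 29.9% were not whole, and they were rounded. Samples were grouped by genotype and treatment as titled, each library 1 animal. Counts ran from 4116116 to 9237385 per library, and intervals and floors (3 counts) cover counting error only. Group effects of all 17 libraries were fitted with edgeR 4.0.16 (TMM, quasi-likelihood, a total of at least 20 counts) in R 4.3.3, and calls had a Benjamini-Hochberg adjusted p under 0.2 and a fold over 2. Adjusted p-values cover all genes fitted, those on sex chromosomes included. DESeq2 1.42.0, other factors, filters and covariates and leaving out libraries were alternatives. On simulated data with 200 genes changed by 4-fold, the edgeR step recovered 196 with 21 further calls among 26418 genes, and DESeq2 197 with 30. With no gene changed edgeR made 0 calls and DESeq2 7 among 26439 genes. Values in CPM are counts per 1000000 after TMM scaling. The length column of the deposited table, of another unit, was not used for levels, and levels were not compared between genes. Coordinates and overlaps came from GENCODE release 21 for 96.2% of genes. Genes named were Ppara, those called, the 10 of each direction with the smallest unadjusted p at a mean of 1 CPM or more, and the most abundant members of lists, and others were picked after their values were seen. The comparison and the gene lists were chosen with earlier results of these data known. Pairs of libraries in a group differed beyond sampling noise (chi-square per degree of freedom 6.28 to 54.2). Some genes that the rule names are not reported here.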

Additional observations from a re-analysis of the deposited data

Results flagged for a closer look

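The KO against KI difference was itself different on vehicle and on PFOA for 3 genes by DESeq2's interaction term and for 0 by edgeR's quasi-likelihood test. By the edgeR test, 1422 of the 26073 autosomal genes tested stood at an unadjusted p under 0.05. For Klf2 the vehicle difference minus the PFOA difference was -1.66 on the log2 scale (adjusted p = 0.00062 by DESeq2). For Gm17829, a processed pseudogene inside Lrrc20, it was -2.57 (adjusted p = 0.0104 by DESeq2). KO libraries of Gm17829 were at 1.15 to 4.39 CPM on vehicle, below the KI libraries at 5.35 to 7.03 CPM, and at 5.98 to 11.4 CPM on PFOA, above the KI libraries at 2.85 to 3.49 CPM. For the pseudogene Rpl15-ps6 it was -8.80 (adjusted p = 0.0207 by DESeq2), a fitted value against groups at 0 counts that is no measure of size. On vehicle it rests on 10 counts in KI 102, and the fitted vehicle difference went from -5.0 to -2.31 without that library. Rpl15-ps6 was at 21 and 24.2 CPM in WT vehicle, at or below 1.59 CPM in every KO and KI library, and at 0 in all KO vehicle and all KI PFOA libraries. Both pseudogenes can share reads with near-identical copies.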

How the results depend on the processing

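The count of called genes on vehicle was 1 in the reported fit. It was 16 with DESeq2 on the same genes, 19 with its default filters, 4 with no filter on low counts, 4 in the 6 libraries alone, 3 in the 5 female libraries alone, 6 with a term for the i5 index and 8 with one for the protein-coding share, and, as an alternative chosen after seeing the data, 29 with DESeq2 without KO 137. Leaving out 1 library gave 0 to 13 genes, with 0 without KO 137, KO 145 or KO 149, 13 without KI 102, 2 without KI 116, 3 without KI 135 and 5 without KI PFOA 139. On PFOA the count was 0, with 1 by DESeq2 and 0 to 5 with 1 library left out, 5 of them without KI PFOA 139. For the difference between the treatments it was 0, with 3 by DESeq2 and 0 to 7 with 1 library left out, 7 of them without KI vehicle 116. At an unadjusted p under 0.05 stood 600 of 26073 genes on PFOA. Klf2 was called in 31 of 35 alternatives. Of 1486 values of the named genes under alternatives, 1421 kept their direction and their side of the threshold, 61 passed it newly, 4 lost it and 0 changed direction. Of 1184 list medians, 78 moved by more than the spread between libraries. The cause was not tested. Upper-quartile scaling shifted the median of all genes to 0.13 on the log2 scale. No paired analysis was possible because replicate numbers are animal numbers that the groups do not share. The limits are the 3 libraries per group, the depth and composition of KO 137, the 1 male KI library and the cardiac transcripts, which cannot be told apart from genotype here beyond the values given.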
